A study of Homo sapiens with 10 samples.

Results

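The genes described here are MYC, its relatives MYCN and MYCL, their shared partner MAX, and the other proteins that compete for MAX, namely MNT, MGA, MXD1, MXD3, MXD4 and MXI1. They were chosen by gene symbol, and their values come from tumours of A375, an established human melanoma line, grown under the skin of BALB/c nude mice, which lack T cells. Of the 10 named genes, 9 were measured, each by 1 probe set, among 17492 genes in all. The expression of MXD4 was not analysed here, and only its promoter window was searched. Tumours carried Omomyc under the control of doxycycline, and the mice drank doxycycline or its vehicle once tumours had reached 100 mm3. The tumours were taken 7 days after treatment, and 5 of each group were arrayed, 1 array per tumour, as biological replicates per the labels. The sources used here give neither the promoter that drives Omomyc nor the number of clones. Both groups carry the Omomyc construct, and there is no group of doxycycline-treated tumours without it, so that Omomyc and the drug itself cannot be told apart.

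MYC is a transcription factor of the basic helix-loop-helix leucine zipper class. It binds DNA at E-boxes, whose canonical letters are CACGTG, only as a pair with MAX. The MXD proteins, MXI1, MNT and MGA also pair with MAX at E-boxes, and all but MGA recruit the SIN3 corepressor, so that they oppose MYC, while MGA brings MAX into a variant Polycomb repressor complex. Omomyc is a mutated stretch of MYC that keeps the dimerisation and DNA-binding region, lacks the activation domain and forms pairs with itself, MAX and MYC.

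The promoter windows of the members were searched for letters to which these proteins, and the hypoxia factors that share part of the E-box, can bind. Those of MXI1, MGA and MNT are shown. MXI1 and MGA were the members that fell, and MNT was the measured member with a canonical E-box in the windows searched. The sequences are those of RefSeq (GRCh38.p14), read 5′ to 3′ on the strand of the gene, and each shows the 250 bases before an annotated start. Capitals mark CACGTG, or ACGTG in either orientation (ACGTG or CACGT), which is the core of the hypoxia response element and is also contained in CACGTG. MXI1 has 3 listed starts, the windows lying at chr10:110207355-110207604, plus strand, chr10:110209981-110210230, plus strand and chr10:110225746-110225995, plus strand. The window of MGA lies at chr15:41660155-41660404, plus strand, the second of its 3 listed starts, and that of MNT at chr17:2401061-2401310, minus strand.
MXI1 start 1: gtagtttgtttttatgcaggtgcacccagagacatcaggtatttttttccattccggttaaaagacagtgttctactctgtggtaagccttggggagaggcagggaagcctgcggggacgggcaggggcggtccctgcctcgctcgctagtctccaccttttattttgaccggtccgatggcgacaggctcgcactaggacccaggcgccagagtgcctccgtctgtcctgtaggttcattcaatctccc
MXI1 start 2: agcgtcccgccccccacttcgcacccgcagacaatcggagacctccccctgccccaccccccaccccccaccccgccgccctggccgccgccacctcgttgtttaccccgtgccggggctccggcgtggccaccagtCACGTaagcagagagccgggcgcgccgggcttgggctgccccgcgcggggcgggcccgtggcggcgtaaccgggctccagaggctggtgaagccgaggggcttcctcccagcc
MXI1 start 3: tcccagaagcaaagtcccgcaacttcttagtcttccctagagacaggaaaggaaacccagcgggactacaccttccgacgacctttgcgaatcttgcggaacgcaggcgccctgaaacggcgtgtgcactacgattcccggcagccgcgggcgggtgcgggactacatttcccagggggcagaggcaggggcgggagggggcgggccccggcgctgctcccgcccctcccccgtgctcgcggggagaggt
MGA start 2: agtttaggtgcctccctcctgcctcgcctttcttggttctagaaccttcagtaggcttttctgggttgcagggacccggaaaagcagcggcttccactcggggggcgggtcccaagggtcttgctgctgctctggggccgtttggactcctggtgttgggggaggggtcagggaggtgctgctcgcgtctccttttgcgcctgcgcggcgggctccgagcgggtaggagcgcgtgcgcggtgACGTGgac
MNT: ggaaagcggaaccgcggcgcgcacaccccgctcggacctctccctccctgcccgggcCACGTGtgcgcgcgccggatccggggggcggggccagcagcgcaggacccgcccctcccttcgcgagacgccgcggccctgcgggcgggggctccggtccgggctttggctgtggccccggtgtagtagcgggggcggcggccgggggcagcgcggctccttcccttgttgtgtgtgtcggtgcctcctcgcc

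Windows of 9 of the 10 named genes were searched, 14 windows in all. Windows on chromosome 8, where MYC lies, were left out of this search, so no window of MYC was examined. The search covered the whole window of 300 bases, from 250 before to 50 after the start. CACGTG, which reads the same on both strands, stood in 2 of the 14 windows, those of MNT (at position -193 from the start) and MXD4, against 7.26% of all 35116 windows. The hypoxia core stood in 5 of the 14 windows, against 21.4% of all windows. These were the windows of MNT and MXD4, where it overlaps the E-box, and 1 window each of MXI1 (CACGT at position -113 from start 2), MGA (ACGTG at position -8 from start 2) and MAX. The variant E-box CATGTG, with its other orientation CACATG, stood in 1 window, that of MYCL, against 11.1% of all. The other windows of MXI1 and MGA held none of these letters. A match describes letters only, and no binding was measured.

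The array values are log2 expression values, so a difference of 1 is a doubling, and differences are given as doxycycline minus vehicle. Probes differ in how strongly they bind, so no level of 1 gene is compared with that of another, and a place relative to an array's median or lower quartile is only a rough guide to whether a probe set was bright or dim. A gene was called changed when its adjusted p from limma, fitted across all 17492 genes with Benjamini-Hochberg adjustment, was under 0.05. Correlations between arrays ranged from 0.979 to 0.987 within vehicle and from 0.965 to 0.985 within doxycycline. Doxycycline arrays 4 and 5 had the lowest mean correlation with their own group (0.973 and 0.9669), so results are also given without both where that matters. The melanoma markers SOX10 (7.40 in vehicle), PRAME (8.59) and MIA (8.38) lay above the median of every array (5.45 to 5.56), whereas the pigment genes MLANA (3.12), TYR (3.00), PMEL (3.23) and TYRP1 (2.31) lay below the lower quartile of every array (3.43 to 3.59).

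Of the 9 measured members, 1 rose, MYC, and 2 fell, MXI1 and MGA. Among all genes, 5.03% were called higher and 5.95% lower, or 11.0% in either direction. In 4 members the groups did not overlap, MYC lying above in doxycycline tumours and MXI1, MGA and MXD1 below. Over all genes the groups failed to overlap in 11.8%, with doxycycline above in 5.38% and below in 6.43%. The median difference over the 9 members was 0.05, and over all genes 0.02. MAX and MXD1 lay just outside the threshold, and MYCN, MYCL, MNT and MXD3 had intervals that span 0. With doxycycline array 5 left out, MAX and MXD1 were called too, making 2 higher and 3 lower. Without vehicle array 1, 2 or 4 the count of lower members was 1.

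**Figure D1:**
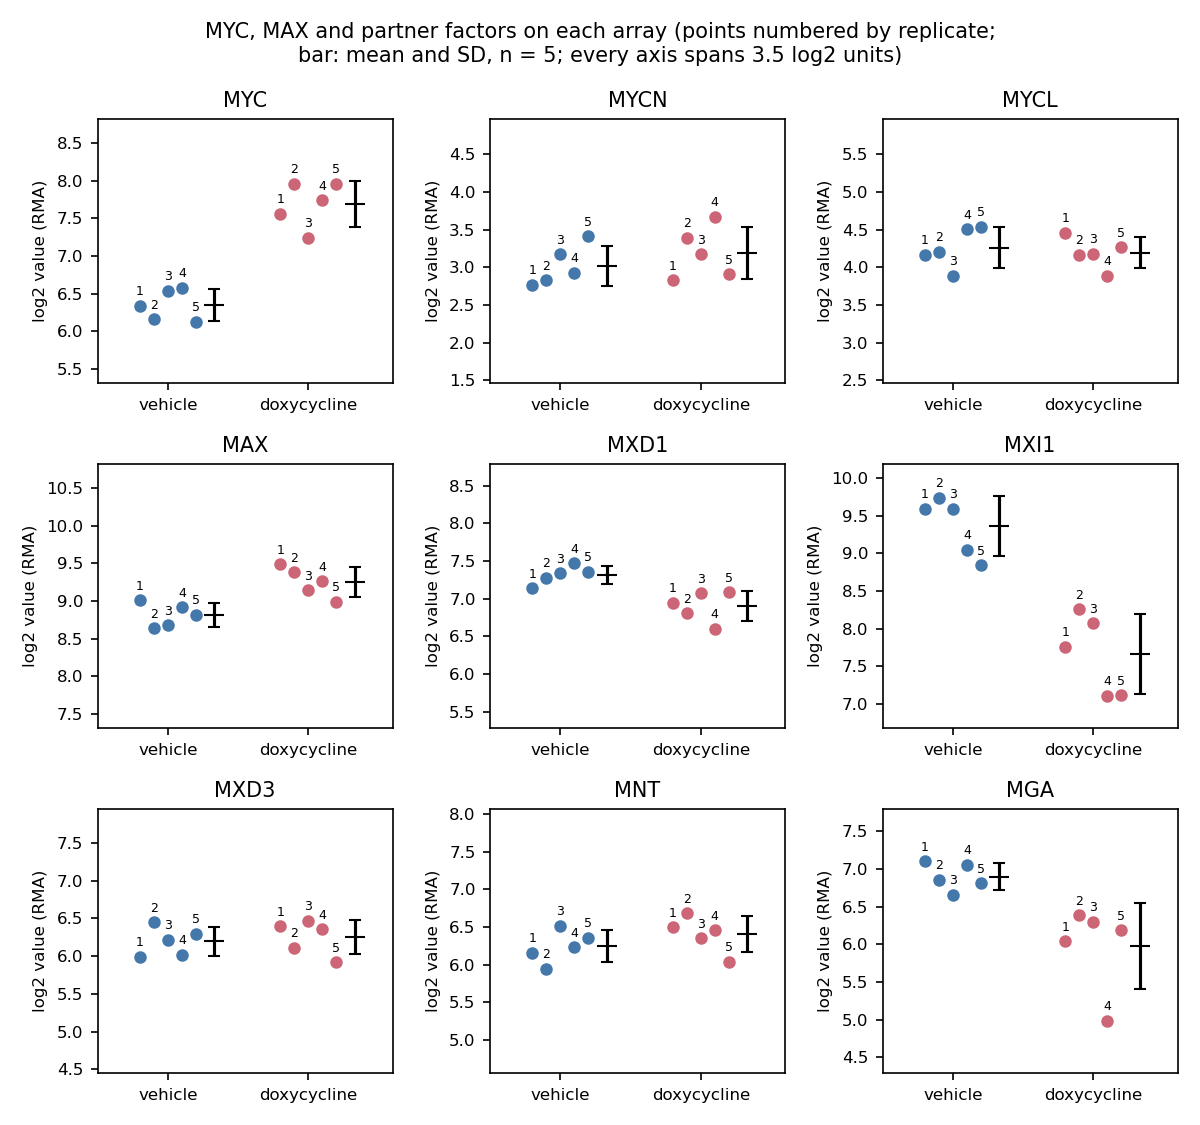
Log2 value of each measured member (y axis) on each of the 5 vehicle and 5 doxycycline arrays, numbered by replicate, with the mean and SD as a bar. All axes span the same range, so the distance between groups can be compared by eye. The groups are apart for MYC, MXI1, MGA and MXD1, and MAX overlaps through doxycycline array 5 (8.99) and vehicle array 1 (9.01).

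MYC itself read 6.34, 6.16, 6.54, 6.58 and 6.13 on vehicle arrays 1 to 5. On doxycycline arrays 1 to 5 it read 7.56, 7.96, 7.24, 7.74 and 7.96. The lowest doxycycline array lay 0.65 above the highest vehicle array. The mean went from 6.35 ± 0.21 to 7.69 ± 0.30 (SD, n = 5 each), a rise of 1.34 (SE 0.16, 95% interval 0.98 to 1.69) or 2.53-fold (limma, adjusted p = 0.000348). It was rank 79 of 17492 when genes were ordered from the largest rise down. Omomyc is made from MYC and may be read by this probe set, and the share of the value due to the Omomyc transcript was not tested. With any 1 array left out the rise was between 1.27 and 1.45, and without doxycycline arrays 4 and 5 it was 1.23.

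Neither relative of MYC passed the test. MYCN, best known from neuroblastoma, read 2.77, 2.83, 3.17, 2.93 and 3.41 in vehicle and 2.83, 3.39, 3.17, 3.67 and 2.91 in doxycycline tumours, with 1 doxycycline array above all vehicle arrays. Its difference was 0.17 (95% interval -0.23 to 0.57, limma, adjusted p = 0.638). MYCL, the relative first found in lung cancer, ranged from 3.89 to 4.54 in vehicle and from 3.89 to 4.46 in doxycycline tumours. Its difference was -0.07 (95% interval -0.41 to 0.27, limma, adjusted p = 0.841). Both group means of MYCN lay below the lower quartile of every array, and both of MYCL lay above it and below the median.

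MAX, the partner with which MYC and the other members bind E-boxes (some, such as MNT and MXD1, can also pair with MLX), read 9.01, 8.64, 8.68, 8.92 and 8.82 on the vehicle arrays. On the doxycycline arrays it read 9.49, 9.38, 9.14, 9.26 and 8.99. Doxycycline arrays 1 to 4 lay above all vehicle arrays, and array 5 lay 0.02 below the highest of them. The means were 8.81 ± 0.16 and 9.25 ± 0.20 (SD, n = 5 each), which differ by 0.44 (SE 0.13, 95% interval 0.15 to 0.72) or 1.36-fold. This missed the threshold (limma, adjusted p = 0.0512). Over the alternatives run the difference stayed between 0.38 and 0.52 and the adjusted p between 0.00863 and 0.12, passing with doxycycline array 5 left out (adjusted p = 0.0287) with doxycycline arrays 4 and 5 left out (adjusted p = 0.0415) and in 5 of the alternatives that kept all arrays.

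MXI1, a MAX partner that recruits SIN3 and opposes MYC, gave the largest fall among the members. On vehicle arrays 1 to 5 it read 9.59, 9.74, 9.59, 9.05 and 8.84, and on doxycycline arrays 1 to 5 it read 7.76, 8.26, 8.07, 7.11 and 7.12. The highest doxycycline array lay 0.59 below the lowest vehicle array. Within vehicle, arrays 4 and 5 were the lowest, and within doxycycline, arrays 4 and 5 were too. The mean fell by 1.70 (SE 0.26, 95% interval -2.26 to -1.14), or 3.25-fold, from 9.36 ± 0.39 to 7.66 ± 0.53 (SD, n = 5 each; limma, adjusted p = 0.00148). It was rank 88 of 17492 when genes were ordered from the largest fall up. The fall was -1.85 to -1.56 with any 1 array left out and -1.33 without doxycycline arrays 4 and 5 (adjusted p = 0.00531).

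MXI1 is also known as a gene induced by the hypoxia factor HIF1, and hypoxia genes fell in the same tumours. Of 21 measured hypoxia genes 16 fell and 0 rose (limma), beside 5.95% and 5.03% of all genes. At an unadjusted p under 0.05, 20 fell and 0 rose. Their median difference was -1.46 against 0.02 over all genes, and each of the 21 differences was below 0. The list was written with earlier results of these data known, so its direction is not independent evidence. With the unmoderated test of unequal variances 10 fell. Relative to the vehicle mean, the mean over the 21 genes was 0.19, 0.26, 0.24, -0.33 and -0.36 on vehicle arrays 1 to 5. On doxycycline arrays 1 to 5 it was -1.84, -0.71, -1.30, -1.92 and -1.94. On the same scale MXI1 was at 0.23, 0.38, 0.22, -0.31 and -0.52 on the vehicle arrays and at -1.60, -1.11, -1.29, -2.26 and -2.24 on the doxycycline arrays. Vehicle arrays 4 and 5 were the low ones of their group for both, doxycycline array 2 was the highest of its group for both, and doxycycline arrays 4 and 5 were the lowest for both. CA12, a carbonic anhydrase, went from 7.82 ± 0.31 to 4.20 ± 0.91, and HILPDA, a lipid droplet protein, from 7.98 ± 0.44 to 5.98 ± 0.66 (SD, n = 5 each). The peptide hormone gene ADM fell by 3.19 and LDHA, lactate dehydrogenase A, fell by 1.09. The part of hypoxia in the fall of MXI1 was not tested.

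**Figure D2:**
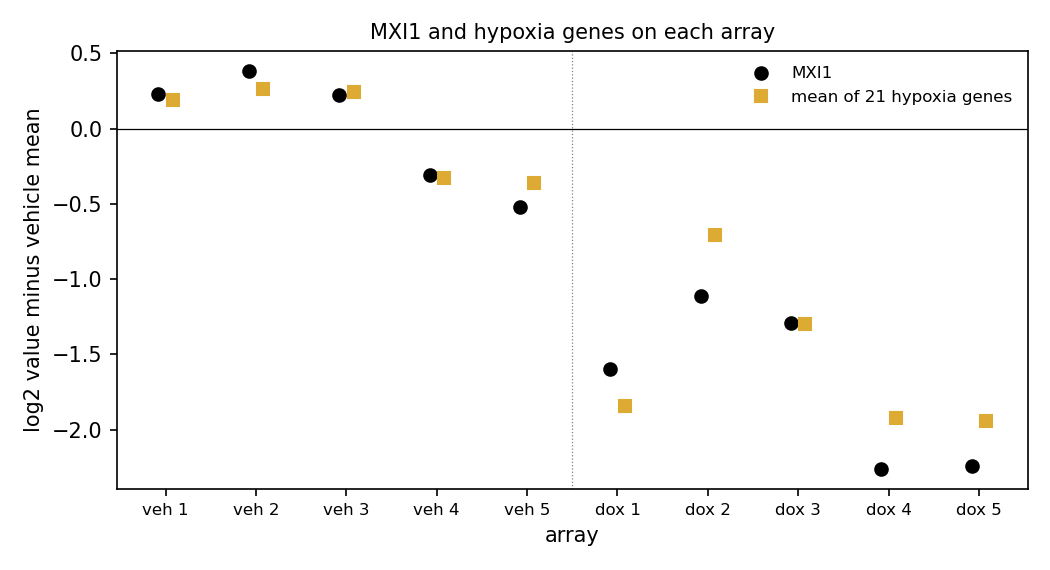
Log2 value minus the vehicle mean (y axis) on each of the 10 arrays (x axis; veh, vehicle; dox, doxycycline) for MXI1 (circles) and for the mean of the 21 hypoxia genes (squares). The doxycycline arrays lie between -2.26 and -1.11 for MXI1 and between -1.94 and -0.71 for the hypoxia genes, and vehicle arrays 4 and 5 are below the other vehicle arrays for both.

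MXD1, formerly MAD, is a MAX partner that rises when cells of several lineages differentiate. It read 7.14, 7.28, 7.34, 7.47 and 7.36 in vehicle and 6.95, 6.81, 7.07, 6.60 and 7.09 in doxycycline tumours. All doxycycline arrays lay below all vehicle arrays, by 0.05 at the nearest. The difference was -0.41 (SE 0.13, 95% interval -0.69 to -0.14) and missed the threshold (limma, adjusted p = 0.0569), and it passed with doxycycline array 5 left out (adjusted p = 0.0456). It also passed in 3 alternatives that kept all arrays: removal of the dimmest 30% of genes gave an adjusted p of 0.0316, trended and robust moderation 0.0353 and quantile normalization run again 0.0484. Over the alternatives run, the adjusted p of MXD1 was between 0.0316 and 0.128. MXD3, a relative expressed in dividing cells, read between 5.99 and 6.45 in vehicle and between 5.92 and 6.47 in doxycycline tumours. Its difference was 0.05 (95% interval -0.26 to 0.37, limma, adjusted p = 0.872). MNT, the most widely expressed of the SIN3-recruiting partners, read between 5.95 and 6.52 in vehicle and between 6.04 and 6.68 in doxycycline tumours. Its difference was 0.16 (95% interval -0.16 to 0.49, limma, adjusted p = 0.563). MXD3 and MNT overlapped on most arrays, 1 doxycycline array of each lying above all vehicle arrays, and 1 of MXD3 also below them.

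MGA, a very large protein with a second DNA-binding domain of the T-box kind, read 7.10, 6.86, 6.66, 7.06 and 6.81 on the vehicle arrays. On the doxycycline arrays it read 6.04, 6.39, 6.30, 4.99 and 6.19. The groups did not overlap, the gap being 0.27, and doxycycline array 4 lay far below the other doxycycline arrays. The mean fell by 0.92 (SE 0.24, 95% interval -1.43 to -0.40), or 1.89-fold, from 6.90 ± 0.18 to 5.98 ± 0.57 (SD, n = 5 each; limma, adjusted p = 0.0268). Without doxycycline array 4 the difference was -0.67 and still passed (adjusted p = 0.0109). The adjusted p was 0.0673, 0.0518 and 0.0638 when vehicle array 1, 2 or 4 was left out, and the call was also lost with the unmoderated test of unequal variances (adjusted p = 0.129).

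**Figure D3:**
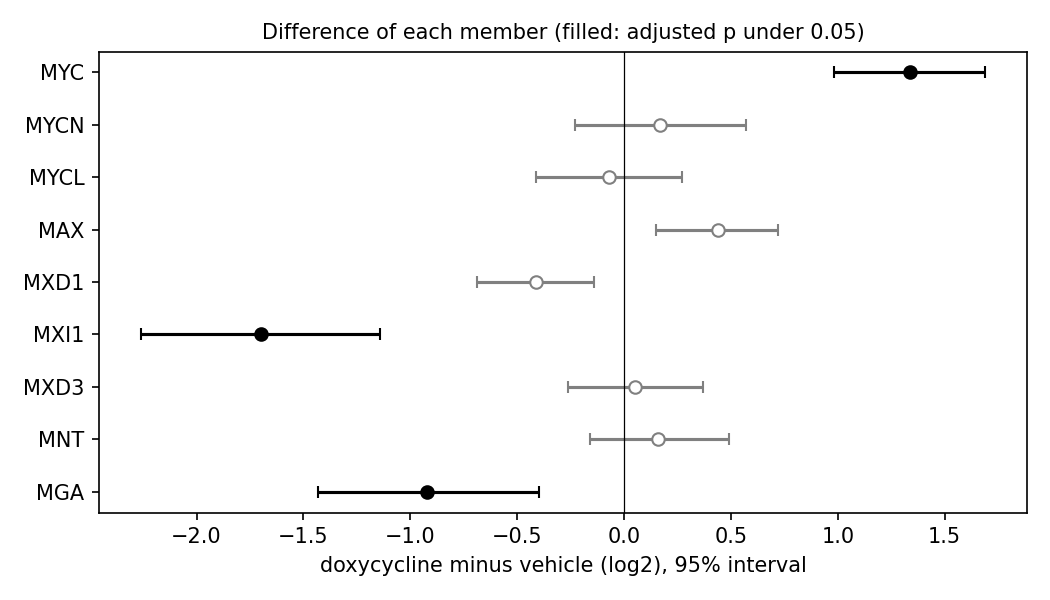
Difference of each measured member, doxycycline minus vehicle on the log2 scale (x axis), with its 95% interval from limma. MYC (1.34), MGA (-0.92) and MXI1 (-1.70) are filled because they passed the threshold. The intervals of MAX (0.15 to 0.72) and MXD1 (-0.69 to -0.14) exclude 0, although their adjusted p did not pass.

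The genes whose values followed the called members most closely over the 10 arrays were ranked by Pearson's r, as a description. For MYC they were CTSL, a lysosomal protease (r = 0.973, and 0.719 within groups, after each group's mean was taken off), PLD3, a lysosomal nuclease (0.96 and 0.658), and RAB18, a small GTPase (0.96 and 0.866). The gene that ran most opposite to MYC was ANP32A (-0.976 and -0.868), which fell by 1.53. For MXI1 they were DNAJC6 (0.987 and 0.945), P4HA1, a collagen hydroxylase on the hypoxia list (0.986 and 0.943), and ERO1A, an oxidase of the endoplasmic reticulum (0.983 and 0.944), and the opposite one was MMP2 (-0.981 and -0.911). DNAJC6, P4HA1 and ERO1A fell by 2.32, 1.53 and 1.21. For MGA they were ATP2B1 (0.969 and 0.957), PTGR3 (0.966 and 0.915) and COPB1 (0.965 and 0.938), and the opposite one was C5orf15 (-0.967 and -0.923). COPB1 differed by -0.29 and did not pass (limma, adjusted p = 0.183). RAB18 rose by 0.44 (adjusted p = 0.0338), but its call was lost without any 1 array other than doxycycline array 1 or 3 (adjusted p up to 0.079), and that of PTGR3 (-0.69) without vehicle array 1 (adjusted p = 0.0596). All these genes share the same 10 arrays and their 2 groups.

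Among proteins that act with or on the members, most were not called, as were most of all genes (11.0% called, 5.03% higher and 5.95% lower). The MLX branch is the sister network, in which MLX takes the place of MAX. Its 3 genes had differences of -0.62 (MLXIP, adjusted p = 0.0675), -0.05 (MLX) and 0.02 (MLXIPL), and none passed in limma (0 of 3; 1 lower at an unadjusted p under 0.05), although MLXIP passed without vehicle array 3 (adjusted p = 0.0316) or doxycycline array 4 (adjusted p = 0.0467), and with the dimmest 30% of genes removed. Of 16 MYC co-activators 1 fell and 0 rose (median -0.05), or 3 and 1 at an unadjusted p under 0.05 in limma. That gene was SMARCA4, the motor of the SWI/SNF chromatin remodeller, with 8.50 to 8.58 in vehicle and 7.51 to 8.12 in doxycycline tumours, so that the groups did not overlap (difference -0.71, limma, adjusted p = 0.00438). Of 14 genes of the SIN3 and HDAC corepressor 1 fell and 0 rose (median 0.04), or 2 and 0 at an unadjusted p under 0.05 in limma. SAP30, a SIN3 subunit, read 6.90 to 7.30 in vehicle and 6.13 to 6.88 in doxycycline tumours (difference -0.64, adjusted p = 0.0179), and its call was lost without doxycycline arrays 4 and 5 (adjusted p = 0.0683).

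MGA works in the Polycomb complex PRC1.6. Of its 12 other measured subunits 2 fell and 1 rose (median -0.17), beside 5.95% and 5.03% of all genes. CBX3, a heterochromatin protein, fell by 0.80 (limma, adjusted p = 0.00231), from 9.83 ± 0.12 to 9.03 ± 0.22. TFDP1, the partner of E2F6, fell by 0.58 (adjusted p = 0.0116). RING1, a ubiquitin ligase, rose by 0.58 (adjusted p = 0.0416), a call lost with any 1 array other than doxycycline array 4 left out (adjusted p up to 0.0909).

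Of 19 measured regulators of MYC protein turnover, 5 fell and 1 rose (median -0.11), beside 5.95% and 5.03% of all genes. FBXO32, a ubiquitin ligase subunit that can target MYC, read 5.44 to 6.34 in vehicle and 7.23 to 7.58 in doxycycline tumours (difference 1.56, limma, adjusted p = 0.000154). MYCBP2, a very large ubiquitin ligase first found as a MYC-binding protein, read 6.91 to 7.35 in vehicle and 5.34 to 6.50 in doxycycline tumours (difference -1.17, adjusted p = 0.00377). The mitotic kinases PLK1 and AURKA, which can stabilise MYC proteins, fell by 0.75 and 0.79 (adjusted p = 0.0038 and 0.00693). These 4 genes were named for having the smallest p of the list, and in each the groups did not overlap. Of the 19 genes, doxycycline lay wholly above in 1 and wholly below in 5, beside 5.38% and 6.43% of all genes.

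Of 45 measured genes that MYC is known to activate, 24 fell and 0 rose (limma), beside 5.95% and 5.03% of all genes. The median difference was -0.52. At an unadjusted p under 0.05, 32 were lower and 3 higher, and the unmoderated test called 1 higher. The list holds ribosome, nucleotide, mitochondrial and glycolytic genes and was written with earlier results of these data known, so its direction is not independent evidence. PAICS, a purine synthesis enzyme, read from 10.04 to 10.47 in vehicle and from 7.28 to 8.41 in doxycycline tumours. TMEM97 went from 9.17 ± 0.14 to 7.06 ± 0.23, the mitochondrial chaperone HSPD1 from 10.7 ± 0.07 to 9.05 ± 0.25 and the folate enzyme MTHFD2 from 8.64 ± 0.15 to 6.79 ± 0.31 (SD, n = 5 each). These 4 genes were named for having the smallest p of the list, and in each every doxycycline array lay below every vehicle array. The same held for 24 of the 45 genes and for 6.43% of all genes. Of the 45, 2 genes (LDHA and HK2) are also on the hypoxia list, and of the other 43, 22 fell (median -0.50). Between 20 and 23 fell with any 1 array left out.

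Of 19 measured genes that MYC is known to repress, 5 rose and 2 fell (median -0.04), beside 5.03% and 5.95% of all genes. CDKN1A, the cell cycle inhibitor p21, read 7.93 to 8.75 in vehicle and 9.81 to 10.68 in doxycycline tumours. It rose by 1.78 (limma, adjusted p = 0.000158). TSC22D3, a glucocorticoid-induced gene, rose by 0.74 (adjusted p = 0.00225). TXNIP, a thioredoxin inhibitor that is also a target of the MLX branch, went the other way, from 8.04 ± 0.34 to 5.82 ± 0.60 (adjusted p = 0.000316). NDRG1, which is on the hypoxia list too, fell by 1.71 (adjusted p = 0.00475). Without doxycycline arrays 4 and 5, 3 genes of the list were higher in place of 5, and the unmoderated test called 3 higher and 1 lower.

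Other basic helix-loop-helix factors, and the ID proteins, which pair with such factors but lack the DNA-binding region, moved both ways. Of 23 measured, 3 rose and 6 fell (median 0.01), beside 5.03% and 5.95% of all genes. ID4, an ID protein, was 1 of the risen genes (difference 0.84, limma, adjusted p = 0.0235). Without vehicle array 3 or 4, 1 rose, BMAL1, so that the calls of ID4 and SREBF1 were lost. By the unmoderated test 2 fell in place of 6. The repressor BHLHE41 read 7.65 to 8.49 in vehicle and 5.49 to 6.44 in doxycycline tumours (difference -1.96, limma, adjusted p = 0.000166). TFAP4, itself a MYC target, fell by 1.16 (adjusted p = 0.00141), and SREBF2, which drives cholesterol synthesis genes, fell by 1.17 (adjusted p = 0.00479). Its relative SREBF1 rose by 0.62 (limma, adjusted p = 0.0372). The clock factor BMAL1 rose by 0.96 (adjusted p = 0.0036), while CLOCK had a difference of -0.62 (adjusted p = 0.0488).

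**Figure D4:**
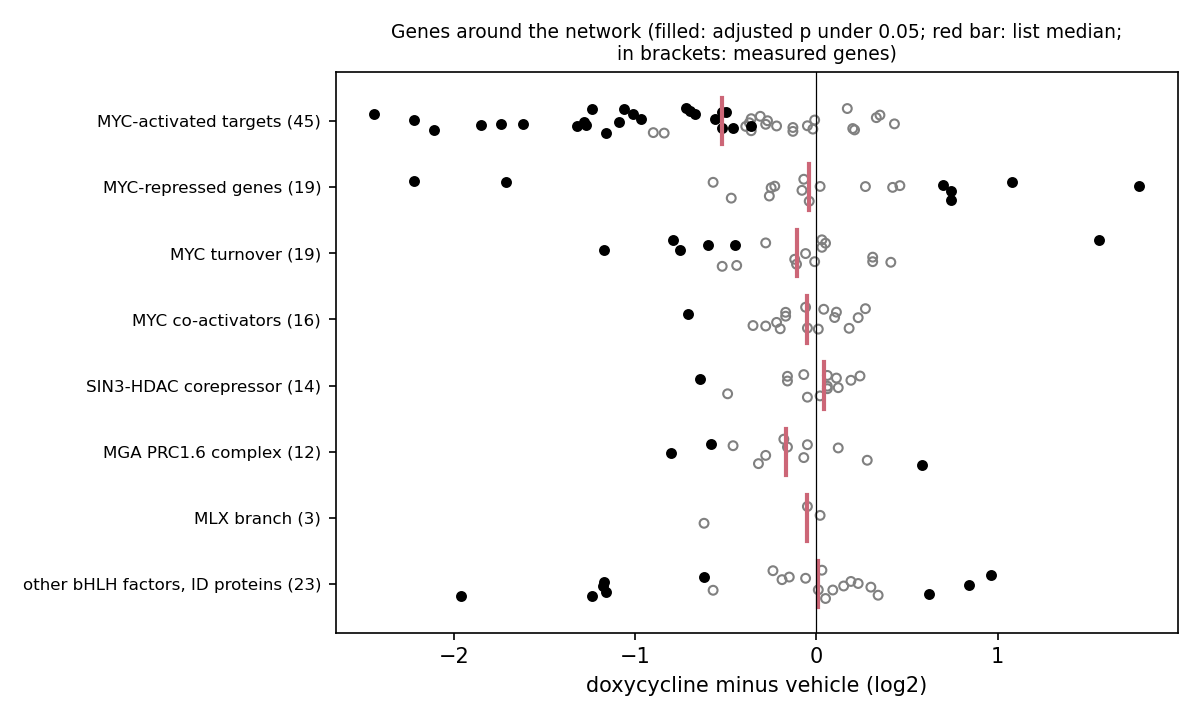
Difference of each measured gene, doxycycline minus vehicle on the log2 scale (x axis), in 8 groups of genes around the network (y axis), filled where the gene passed the threshold, with each list's median as a red bar. The MYC-activated targets lie mostly to the left (median -0.52, 24 of 45 called lower), while the medians of the other lists lie between -0.17 and 0.04.

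Markers of other cell types were examined beside the members, since RNA of the mouse host can hybridise to human probes. In bulk tissue fewer cells of a type and less RNA per cell cannot be told apart. The shares called over all genes were 5.03% higher and 5.95% lower. Of 18 macrophage and monocyte markers 2 rose, LYZ, lysozyme, by 1.28 (limma, adjusted p = 0.000384) and CD14 by 0.79 (adjusted p = 0.0244), and 0 fell. At an unadjusted p under 0.05, 4 were higher, CD74 (difference 0.94) and CD68 (0.48) being the others, and 1 was lower, LAPTM5 (-0.47). Of the 18 differences 13 were above 0 and 5 below, the latter including CSF1R (-0.15) and C1QA (-0.14). The call of CD14 was lost without vehicle array 1, 3 or 4 or doxycycline array 4. It was also lost without doxycycline arrays 4 and 5 (limma, adjusted p = 0.054). The mean over the list ranged from 4.49 to 4.65 in vehicle and from 4.68 to 5.11 in doxycycline tumours, highest on doxycycline array 4, and the leukocyte gene PTPRC was at 2.30 and 2.74 in mean, below the lower quartile of every array. Of 14 endothelial markers 1 rose, ROBO4, by 0.89 (adjusted p = 0.0208), and 2 were called higher without doxycycline array 5 and 1 lower without doxycycline array 2. ROBO4 lost its call without doxycycline arrays 4 and 5 (difference 0.72, limma, adjusted p = 0.0956). The endothelial mean ranged from 4.43 to 4.64 and from 4.51 to 4.82. Of 13 fibroblast and pericyte markers and 6 keratinocyte markers 0 were called in the main limma fit or by the unmoderated test. With trended and robust moderation 3 fibroblast markers were called lower and 1 higher, and with the dimmest 30% of genes removed 1 lower and 1 higher. The replicate block called 2 lower and array weights 1. At an unadjusted p under 0.05, 2 fibroblast markers were higher and 3 lower, and 1 keratinocyte marker was higher. Their list means ranged from 4.97 to 5.54 and 2.82 to 3.05 in vehicle and from 4.89 to 5.23 and 2.74 to 3.22 in doxycycline tumours. Leaving out 1 array gave up to 3 lower and 1 higher fibroblast marker, the former without doxycycline array 5. Of 14 melanoma markers 1 rose, NGFR, a neural crest receptor, by 1.01 (adjusted p = 0.00349), 2 without vehicle array 5 and 3 without doxycycline array 5, and the list mean ranged from 5.57 to 5.81 in vehicle and from 5.66 to 6.06 in doxycycline tumours. The part of these cell types in the results on the members was not tested.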

How the data were processed

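Per the labels' protocols, RNA of frozen tumours was extracted with TRIzol and biotin-labelled, and the arrays were of Affymetrix make per the series design. The deposited log2 values come from RMA as run by the authors, per the submitters' processing notes. The sources used here name no RMA version or genome build. Of 18569 probe sets, 17511 carried 1 gene symbol, 0 several and 1058 none listed. The probe set with the highest mean was taken for the 17 genes with more than 1, giving 17492 genes.

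The 5 doxycycline and 5 vehicle arrays were compared with limma 3.58.1 (R 4.3.3), with lmFit and then eBayes, in a two-sided test with no term but the group. P-values were adjusted by Benjamini-Hochberg over the whole table. Gene lists were described by counts and medians, with no list test. The members, the 15 lists and the rule for naming genes were chosen with earlier results of these data known. The rule names every member, the MLX branch, up to 4 called genes of each other list with the smallest p, and for each called member the 3 most alike genes and the 1 most opposed. Other names were chosen after their values were seen. Alternatives were array weights, a replicate block, moderation with a trend and robust, arrays centred on their median, quantile normalization run again, the dimmest 30% of genes removed, probe sets averaged per gene, all probe sets tested, an unmoderated test of unequal variances, a minimum change of 1.5-fold, 1 array left out at a time, and doxycycline arrays 4 and 5 left out. On simulated data over 17492 genes, the procedure found 16%, 60% and 98% of genes changed by 0.5, 1 and 2 (log2), with 9 false calls among 126. The simulation changed 50, 100 and 50 genes by these amounts, a smaller share than the 11.0% called here. Its noise was drawn independently for each gene, so the rates in the data may differ. The number of arrays limits the precision.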

Additional observations from a re-analysis of the deposited data

Results flagged for a closer look

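The value of MGA on doxycycline array 4 was 4.99, against 6.04 on the nearest of the other doxycycline arrays. The gap took up 0.75 of the range of the group, above the limit of 0.71 for 5 samples (Dixon's test). Of 18 gene groups tested this way, 1 passed, and chance gives about 1 in 20.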

How the results depend on the processing

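The calls and directions of MYC and MXI1 held in all 21 alternatives run. The count of all genes called higher was 578 with the unmoderated test of unequal variances and 595 to 908 with 1 array left out, in place of 880, and that of lower genes was 706 and 768 to 1012, in place of 1041. The highest counts, 1200 and 1315, came with trended and robust moderation. The count of higher members was 2, adding MAX, with array weights, trended and robust moderation, a second quantile normalization, median centring, the dimmest 30% removed, and without doxycycline arrays 4 and 5, and 1 to 2 with 1 array left out. The count of lower members was 1, losing MGA, with the replicate block or the unmoderated test, 3, adding MXD1, with trended and robust moderation, a second quantile normalization or the dimmest 30% removed, and 1 to 3 with 1 array left out. The count of higher MYC-activated targets was 1 in place of 0 with the dimmest 30% removed or the unmoderated test. Differences near 0 changed sign: MYCL to 0.0073 without doxycycline array 4 and 0.0068 without arrays 4 and 5 (-0.16 to 0.0073 with 1 array left out), MXD3 to -0.0018 without doxycycline array 3 (-0.0018 to 0.14), MLX to 0.0011 and 0.02 without vehicle array 5 or doxycycline array 1 (-0.13 to 0.02), and MLXIPL to -0.03 with array weights and -0.17 without doxycycline arrays 4 and 5 (-0.10 to 0.16 with 1 array left out). Arrays with the same replicate number deviated together only weakly (correlations of -0.0635 to 0.191, 4 of 10 arrays correlating best with their own number). So few pairs cannot decide whether equal numbers mark a shared batch or pairing, and the labels name no batch. With the replicate block 755 genes were called higher and 886 lower. MGA had an adjusted p of 0.0583, RING1 of 0.0915, CD14 of 0.0564 and RAB18 of 0.086 in limma with that block. The other genes named by the rule kept their calls. The cause of these changes was not tested. Among genes named by the rule, the unmoderated test lost the calls of MGA, RING1, CD14, RAB18, SAP30, AURKA, NDRG1, SREBF2, ROBO4, PTGR3, C5orf15 and ERO1A. ID4, SREBF1 and CLOCK were named outside the rule, and no values of their own were taken in the alternatives. No detection values were used, so signal over background is unknown.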
